A study of Mus musculus with 10 samples.

Results

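The members of a set of 10 genes of the epithelial-to-mesenchymal transition (EMT) were followed by their open chromatin: the transcription factors Snai1, Snai2, Zeb1, Zeb2, Twist1 and Twist2, the cadherins Cdh1 and Cdh2, the epithelial adhesion gene Epcam and the intermediate filament gene Vim. A region belonged to a gene when that gene was the nearest protein-coding gene within 50 kb. This rule gave 214 regions to the 10 genes, of 246799 regions in all. Of the 214, 170 passed the filter on low counts, against 173175 in the whole table.

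Accessibility came from ATAC-seq (a transposase inserts adapters where chromatin is open) in cells grown from ES-Bruce4, a C57BL/6 mouse embryonic stem cell line. Stem cells had been kept on mouse embryo fibroblast feeders and were feeder depleted before plating. The day 2 group, which the labels call epiblast stem cells, had bFgf at 10 ng/ml from day 0. Day 2 is also the day on which CHIR99021, an activator of Wnt signalling, was added at 5 µM, and the labels do not say whether the day 2 cells were taken before or after that. The day 3, day 6 and day 7 groups, labelled neuromesodermal progenitors, followed with CHIR99021. All 5 groups are listed with bFgf at 10 ng/ml. The last group had human Gdf11, a TGF-beta family ligand, at 50 ng/ml on day 6 for 24 h, and was also collected on day 7. No group carries a genetic change by its labels. Each of the 5 groups had 2 libraries of 50000 cells, and the labels do not say whether these came from separate cultures, so a p-value here reflects only how far these libraries lie apart, which may be technical.

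In an epithelial-to-mesenchymal transition, cells held together by E-cadherin lose that contact, take up N-cadherin and vimentin, and become motile. Factors of the Snail, Zeb and Twist families drive the change, the Snail and Zeb proteins largely by binding E-box motifs at the promoters of epithelial genes and repressing them. In the embryo a transition of this kind takes place at the primitive streak and tail bud, where neuromesodermal progenitors reside.

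The 250 bases before the start site are shown for Epcam, whose start-site region fell, for Vim and Twist1, whose start-site regions rose, and for Snai1, whose start-site region was not called. All are from RefSeq on GRCm38.p6, which has the coordinates of mm10, on the plus strand, and capitals mark the E-box motif CACCTG or its reverse complement CAGGTG. The windows are chr17:87635729-87635978 for Epcam, chr2:13574061-13574310 for Vim, chr12:33957421-33957670 for Twist1 and chr2:167537945-167538194 for Snai1.
Epcam: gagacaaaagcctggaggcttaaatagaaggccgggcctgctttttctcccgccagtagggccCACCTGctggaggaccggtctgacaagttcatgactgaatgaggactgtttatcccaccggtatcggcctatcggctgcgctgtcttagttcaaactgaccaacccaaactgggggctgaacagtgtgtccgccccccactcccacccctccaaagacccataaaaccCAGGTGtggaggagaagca
Vim: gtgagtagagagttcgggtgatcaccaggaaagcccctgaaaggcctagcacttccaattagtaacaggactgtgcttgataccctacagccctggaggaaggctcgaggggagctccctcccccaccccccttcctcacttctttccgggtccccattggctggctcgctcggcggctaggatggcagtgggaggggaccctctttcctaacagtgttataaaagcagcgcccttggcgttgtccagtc
Twist1: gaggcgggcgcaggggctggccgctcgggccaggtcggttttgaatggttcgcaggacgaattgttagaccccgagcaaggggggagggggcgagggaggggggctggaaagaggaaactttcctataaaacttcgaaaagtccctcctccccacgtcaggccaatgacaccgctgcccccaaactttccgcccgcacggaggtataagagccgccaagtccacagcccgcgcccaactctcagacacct
Snai1: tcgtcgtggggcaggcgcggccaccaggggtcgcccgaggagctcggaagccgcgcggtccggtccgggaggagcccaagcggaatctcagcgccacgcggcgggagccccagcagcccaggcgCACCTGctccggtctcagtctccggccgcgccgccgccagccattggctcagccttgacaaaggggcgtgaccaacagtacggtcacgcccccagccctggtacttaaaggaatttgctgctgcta
The Epcam window held 2 such motifs, which began 187 and 19 bases before the start site, and the Snai1 window held 1, which began 126 bases before it. The Vim and Twist1 windows held 0, and so did the Twist2 window and each of the 4 Zeb2 windows, one per listed start site, which are not printed. Of 32851 promoter windows of this length in the table, 17.2% held at least 1 and 2.06% held 2 or more, on either strand. Promoters were in the table for 6 of the 10 members. A match of letters is not evidence of binding.

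Libraries held between 7150334 and 12335735 counts in regions, and 80504 to 118603 peaks each. Of 10 caudal and neuromesodermal marker genes 8 were called higher on day 7 than on day 2, with 29.3% of all tested genes called higher. The summed accessibility of 14 feeder fibroblast markers lay between 389 and 463 CPM (counts scaled to library size) in all 10 libraries. Scaling moved the median gene. With Gdf11 it stood at -0.10 (log2) under the scaling used for the tests, trimmed mean of M values (TMM), at 0.06 with library size alone and at 0.01 with cyclic loess. For day 7 against day 2 it stood at 0.06, -0.07 and 0.02, with 5551 genes higher and 4328 lower under TMM and 4121 and 5486 with library size alone. For day 7 against day 6 it stood at 0.05 with TMM and -0.05 with library size alone, with 679 genes higher and 132 lower against 328 and 312. In a mixed population, fewer cells with an open region and less opening per cell cannot be told apart, and accessibility is not expression.

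Cdh1 and Cdh2 moved in opposite directions between day 2 and day 7. Cdh1 encodes E-cadherin, the main adhesion molecule of epithelia and of pluripotent cells, and Cdh2 encodes N-cadherin, typical of neural and mesenchymal cells. Summed over 22 regions, Cdh1 stood at 131 and 146 CPM in the day 2 libraries, 81.8 and 103 on day 3, 48.7 and 50.9 on day 6, and 44.2 and 38.0 on day 7. Each of these groups lay wholly below the one before, with the step from day 6 to day 7 the smallest. The fall was 1.51-fold from day 2 to day 3 (log2 -0.59 ± 0.12 SE, edgeR adjusted p = 0.000275) and 1.85-fold from day 3 to day 6 (-0.88 ± 0.12, adjusted p = 1.17e-06). From day 6 to day 7 the difference of -0.27 ± 0.13 was not called (adjusted p = 0.258). Day 7 lay 3.34-fold below day 2 (-1.74 ± 0.12, adjusted p = 1.64e-14).

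Cdh2, summed over 49 regions, stood at 103 and 101 CPM on day 2, 145 and 150 on day 3, 190 and 192 on day 6, and 214 and 216 on day 7. The groups did not overlap, and the libraries of a group lay close together. It rose 1.44-fold from day 2 to day 3 (log2 0.53 ± 0.09, edgeR adjusted p = 4.62e-05) and 1.29-fold from day 3 to day 6 (0.37 ± 0.09, adjusted p = 0.00193). The difference from day 6 to day 7 was 0.18 ± 0.09 (adjusted p = 0.268), and day 7 lay 2.11-fold above day 2 (1.08 ± 0.09, adjusted p = 1.31e-12). The log2 ratio of Cdh2 to Cdh1 was -0.35 and -0.53 on day 2, so Cdh1 had the larger sum there. It was 0.83 and 0.54 on day 3, 1.96 and 1.91 on day 6, and 2.28 and 2.51 on day 7. These sums cover different numbers of regions and are not per length, so the ratio is read here only between libraries.

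**Figure D1:**
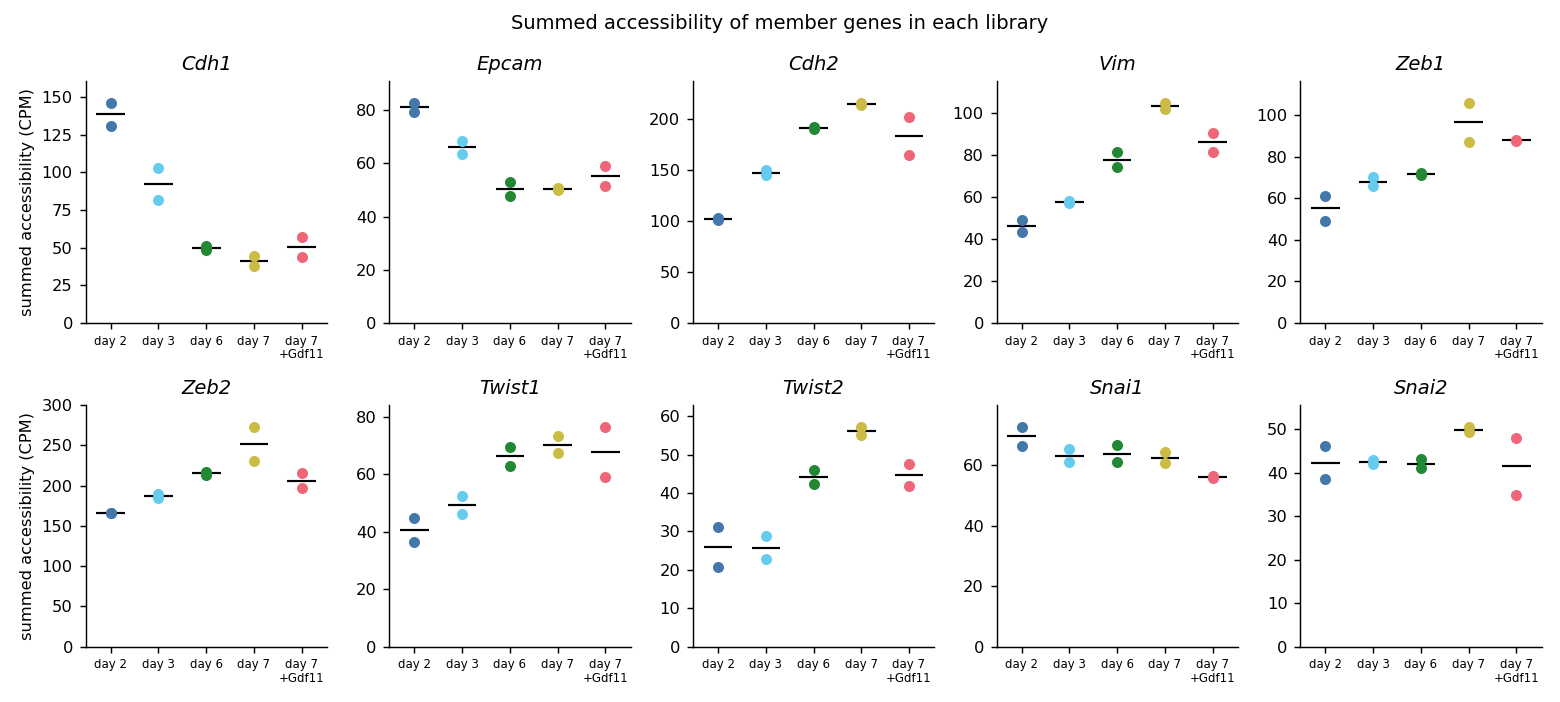
Summed accessibility (CPM, y axis, linear from 0) of each of the 10 genes by group (x axis), with 1 point per library and a bar at the mean of 2 libraries. Cdh1 and Epcam are highest on day 2, Cdh2 and Vim rise to day 7, and Snai1 stays between 55.9 and 72.7 CPM.

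**Figure D2:**
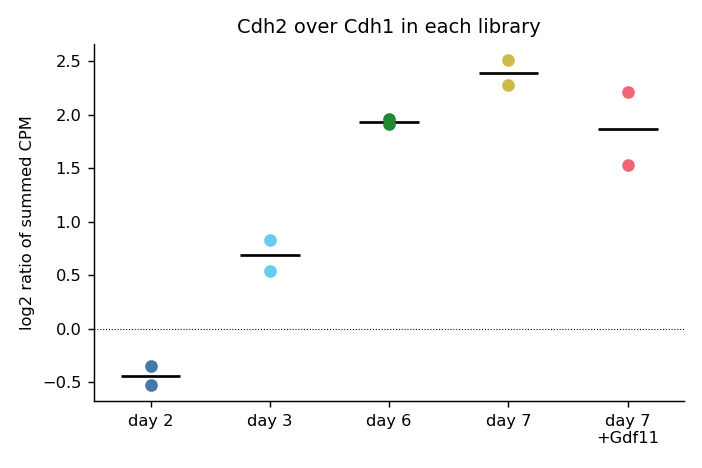
The log2 ratio of summed Cdh2 to summed Cdh1 accessibility (y axis) in each library by group (x axis), with a bar at the mean of 2 libraries. It goes from -0.53 in a day 2 library to 2.51 in a day 7 library and stands at 1.53 and 2.21 with Gdf11.

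Of the other structural members, Epcam was lower and Vim higher on day 7 than on day 2. Epcam encodes an adhesion glycoprotein of epithelia and stem cells, and its 15 regions summed to 82.7 and 79.5 CPM on day 2, 63.7 and 68.6 on day 3, 47.9 and 52.9 on day 6, and 49.8 and 50.7 on day 7. The day 6 and day 7 libraries overlapped, below all earlier ones. Day 7 lay 1.62-fold below day 2 (log2 -0.69 ± 0.11, edgeR adjusted p = 3.64e-06). With regions within 10 kb only, the same difference was -1.68. The single steps lost their calls when single libraries were left out, and the first also with the 10 kb window (-0.33, edgeR adjusted p = 0.118). For day 3 against day 2, -0.30 ± 0.11 (adjusted p = 0.0482) became -0.28 without day 2 library 1 (adjusted p = 0.153) and -0.27 without day 3 library 1 (0.165). For day 6 against day 3, -0.39 ± 0.11 (adjusted p = 0.0113) became -0.36 without day 3 library 2 (0.0568) and -0.30 without day 6 library 1 (0.194), and was -1.05 with the 10 kb window.

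Vim encodes vimentin, the intermediate filament of mesenchymal cells and neural progenitors. Its 9 regions summed to 49.1 and 43.5 CPM on day 2, 57.4 and 58.0 on day 3, 81.5 and 74.4 on day 6, and 102 and 105 on day 7. No library of a group reached into the next. Day 7 lay 2.22-fold above day 2 (log2 1.15 ± 0.11, edgeR adjusted p = 3e-11). Each single step was also called, at 0.31 ± 0.11 (adjusted p = 0.0385), 0.44 ± 0.11 (0.00268) and 0.40 ± 0.10 (0.0181). None of the 3 step calls held throughout. Cyclic loess (0.22, edgeR adjusted p = 0.13) and DESeq2 (0.26, adjusted p = 0.129) did not call the first. The first was lost without day 2 library 2 (0.18, adjusted p = 0.362), day 3 library 1 (0.29, 0.145) or day 3 library 2 (0.29, 0.125), and the second without day 6 library 1 (0.38, 0.0598). The third was lost without day 6 library 2 (0.37, 0.157), day 7 library 1 (0.44, 0.0625) or day 7 library 2 (0.41, 0.119), and with library size alone (0.30, 0.0816) or cyclic loess (0.29, 0.0728). Less the median gene, the third step was 0.35.

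Of the 6 transcription factors, the Zeb and Twist genes were more accessible on day 7 than on day 2, and the Snail genes were not called in any of the 5 comparisons. Zeb1 and Zeb2 encode zinc finger homeodomain repressors of epithelial genes. Zeb1 stood at 49.2 and 61.3 CPM on day 2, 66.2 and 70.1 on day 3, 72.5 and 71.3 on day 6, and 87.4 and 106 on day 7, a rise of 1.74-fold from day 2 to day 7 (log2 0.80 ± 0.11, edgeR adjusted p = 2.36e-07). Zeb2, with 48 regions, stood at 166 and 166, then 185 and 189, then 217 and 213, and on day 7 at 230 and 273 CPM, a rise of 1.51-fold (0.60 ± 0.08, adjusted p = 2.81e-07). The Zeb2 rise was 0.20 with cyclic loess (adjusted p = 0.0231), and the Zeb1 rise 0.45 with the 10 kb window (0.012). In both genes the day 7 libraries were the furthest apart. No single step of Zeb2 was called before Gdf11. For Zeb1 the step from day 6 to day 7 was called at 0.42 ± 0.11 (adjusted p = 0.0207), a call lost without day 6 library 1 (0.44, 0.0845), day 6 library 2 (0.44, 0.0983) or day 7 library 2 (0.31, 0.274), and with library size alone or cyclic loess (0.31 in each, 0.0697 and 0.0699). The 10 kb window gave 0.39 and did not call it either (edgeR adjusted p = 0.142). Less the median gene this step was 0.36.

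Twist1 and Twist2 encode basic helix-loop-helix factors of mesoderm and neural crest. Twist1 stood at 36.6 and 44.7 CPM on day 2, 46.2 and 52.4 on day 3, 63.0 and 69.5 on day 6, and 73.5 and 67.3 on day 7. Day 2 did not overlap any later group, while day 6 and day 7 overlapped. Day 7 lay 1.74-fold above day 2 (log2 0.80 ± 0.13, edgeR adjusted p = 2.73e-06). The step from day 3 to day 6 was 0.43 ± 0.13 (adjusted p = 0.0133), and it was not called without day 3 library 1 (0.34, 0.123) or day 6 library 2 (0.36, 0.105). Twist2 stood at 20.7 and 31.1 CPM on day 2, 28.8 and 22.8 on day 3, 45.9 and 42.5 on day 6, and 55.1 and 57.3 on day 7. It differed by 0.02 ± 0.16 over the first step (adjusted p = 0.931) and rose 1.70-fold from day 3 to day 6 (0.76 ± 0.15, adjusted p = 0.000271), or 1.16 with the 10 kb window. Day 7 lay 2.19-fold above day 2 (1.13 ± 0.15, adjusted p = 8.49e-08).

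Snai1 and Snai2 encode Snail and Slug, zinc finger repressors of E-cadherin that act in gastrulation and in neural crest. Snai1 stood at 66.3 and 72.7 CPM on day 2, 60.9 and 65.2 on day 3, 60.9 and 66.5 on day 6, and 64.2 and 60.8 on day 7. The day 3, day 6 and day 7 libraries overlapped. Day 7 differed from day 2 by -0.15 ± 0.11 (log2, edgeR adjusted p = 0.261), which was called lower with library size alone (-0.28) and with cyclic loess (-0.35), and was -0.21 less the median gene. Snai2, with 4 regions, stood at 38.5 and 46.2, 42.0 and 43.0, 43.1 and 41.0, and 50.6 and 49.3 CPM over the same groups, a difference of 0.25 ± 0.14 between day 7 and day 2 (adjusted p = 0.13). Over the 5 comparisons edgeR and DESeq2 both called 0 changes of Snai1 and 0 of Snai2, with 0 and 1 at an unadjusted p under 0.05.

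Counted over genes, day 7 against day 2 called 6 of the 10 members higher and 2 lower, with 29.3% of the 18926 tested genes called higher and 22.9% lower. Day 3 against day 2 called 2 higher and 2 lower (12.1% and 10.4% of all genes), or 3 and 2 with library size alone and 1 and 2 with cyclic loess, and day 6 against day 3 called 4 higher and 2 lower (9.44% and 10.8%). Day 7 against day 6 called 2 higher (3.59% of all genes) and 0 lower (0.697%) in edgeR. DESeq2 also called 0 lower there, and 1 member was lower at an unadjusted p under 0.05. The early counts moved with single libraries: of the 2 called lower on day 3, 1 was left without day 2 library 1 or day 3 library 1, and of the 2 called higher, 1 without day 3 library 1 or day 3 library 2. Of the 2 called lower on day 6, 1 was left without day 3 library 2 or day 6 library 1. Of the 2 called higher on day 7, 1 was left without day 6 library 1, and 0 without day 6 library 2 or day 7 library 2.

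**Figure D3:**
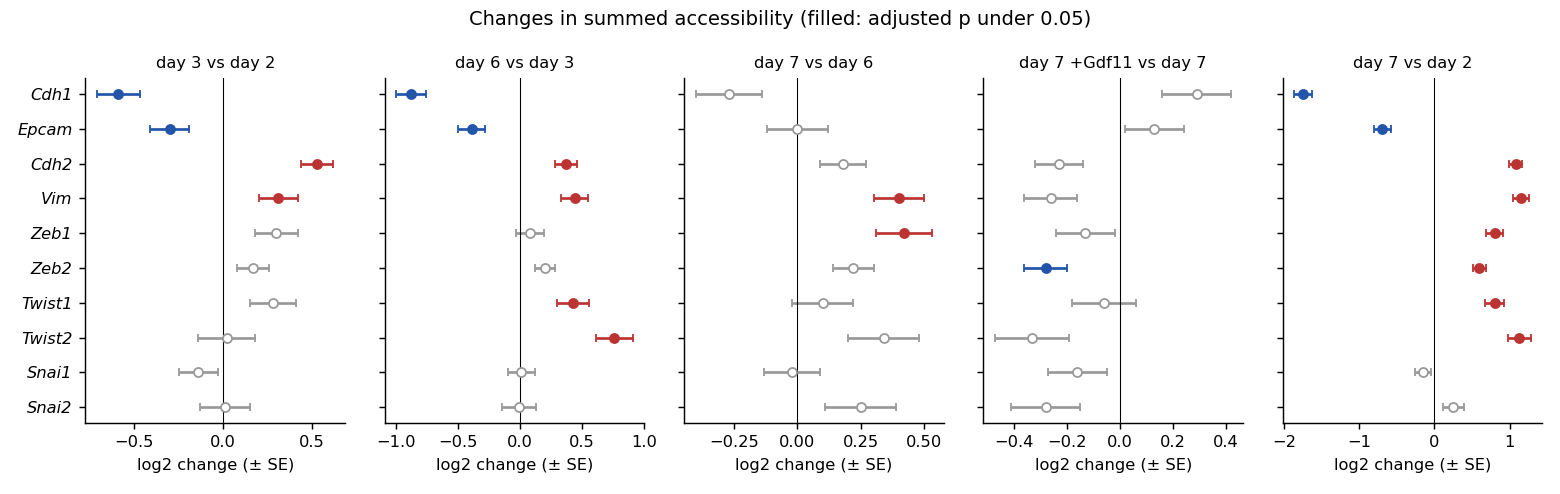
The log2 change in summed accessibility (x axis, each panel with its own range) with its standard error for each of the 10 genes (y axis) in 5 comparisons, 2 libraries a group. Filled points are adjusted p under 0.05, red higher and blue lower. Day 7 against day 2 has Cdh1 at -1.74 and Vim at 1.15.

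With Gdf11, 1 of the 10 genes was called, and Cdh1 and Cdh2 differed between the libraries of the group. Cdh1 stood at 57.1 and 43.6 CPM, Cdh2 at 165 and 202, Epcam at 51.6 and 58.9, and Vim at 81.6 and 90.8. The 2 Gdf11 libraries were apart from each other: library 1 had more Cdh1 and less Cdh2 than library 2, and log2 ratios of Cdh2 to Cdh1 of 1.53 and 2.21 against 2.28 and 2.51 without Gdf11. Among the factors, Zeb1 stood at 87.7 and 88.2, Zeb2 at 197 and 215, Twist1 at 59.1 and 76.6, Twist2 at 41.9 and 47.7, Snai1 at 55.9 and 56.4, and Snai2 at 34.9 and 48.0 CPM. Zeb2, Twist2, Cdh2, Vim, Snai1 and Snai2 lay below both day 7 libraries in both Gdf11 libraries, and Epcam lay above them in both. Of all tested genes 39.9% lay below without overlap and 17.3% above. With library size alone 3 members lay below, Zeb2, Twist2 and Vim, and 2 above, Cdh1 and Epcam, with 20.8% and 32.4% of all genes. The summed accessibility of 10 mesoderm markers was 467 and 510 CPM on day 7 and 321 and 353 with Gdf11, and that of the 10 caudal and neuromesodermal markers 579 and 648 against 425 and 440. With Gdf11 edgeR called 5 of the mesoderm and 6 of the caudal markers lower, where 11.3% of the 18926 tested genes were called lower. It was 3 of each with library size alone, where 588 genes were lower, and with cyclic loess, where 753 were. The part of mesoderm and caudal cells in the Zeb2, Cdh2 and Vim differences was not tested.

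In the Gdf11 comparison edgeR called 1 member lower, Zeb2 (log2 -0.28 ± 0.08, adjusted p = 0.0202), and 0 higher, with 11.3% of all genes called lower and 2.09% higher. DESeq2 also called 0 higher, and 1 member was higher at an unadjusted p under 0.05. Less the median gene's -0.10, Zeb2 stood at -0.19. Its call was lost with library size alone (-0.12, adjusted p = 0.374), with cyclic loess (-0.10, 0.442), without day 7 library 2 (-0.19, 0.283) and without Gdf11 library 1 (-0.25, 0.142). Without Gdf11 library 2, 4 members were called lower and 1 higher. Cdh1, at 0.29 ± 0.13 (adjusted p = 0.129) or 0.39 above the median gene, was called higher at 0.45 with library size alone and with cyclic loess, so the split of member calls went from 0 higher and 1 lower to 1 higher and 0 lower. Over all genes the split went from 396 higher and 2133 lower to 984 and 588 with library size alone and to 854 and 753 with cyclic loess. The other members' differences were -0.26 ± 0.10 for Vim, -0.23 ± 0.09 for Cdh2, -0.33 ± 0.14 for Twist2 and 0.13 ± 0.11 for Epcam, of which none passed.

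Region by region, Cdh1 and Epcam fell at a gene end and inside the gene. The region at the lower-coordinate end of Cdh1 (chr8:106603125-106603596, span 106603350 to 106670247) had 23.1 and 32.6 CPM on day 2, 15.2 and 22.4 on day 3, 8.79 and 10.9 on day 6, and 6.75 and 3.39 on day 7. It was 5.22-fold lower on day 7 than on day 2 (log2 -2.39 ± 0.26, edgeR adjusted p = 2.12e-11), or -3.03 without day 7 library 1. A region inside the gene, 7623 bp from that end (chr8:106610973-106611343), went from 12.6 and 13.2 CPM on day 2 to 1.08 and 0.884 on day 7, or 12.8-fold lower (-3.67 ± 0.39, adjusted p = 1.36e-11), and held a peak in both libraries of day 2 and of day 3 and in none of the later 6. A region 16123 bp inside (chr8:106619473-106620041) stayed at 17.8 and 19.5 CPM on day 3 and fell to 5.59 and 5.75 on day 6 (-1.71 ± 0.23, adjusted p = 7.95e-08). Of the 18 tested Cdh1 regions, 11 were called lower and 0 higher on day 7 against day 2, while 15.8% of all regions were called lower and 22.0% higher. DESeq2 also called 0 higher, and 0 had an unadjusted p under 0.05 in that direction.

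The Epcam start site, whose sequence with 2 E-box matches is printed above (region chr17:87635658-87636060), had 25.8 and 21.3 CPM on day 2, 16.4 and 15.3 on day 3, 4.31 and 6.43 on day 6, and 5.04 and 3.39 on day 7. Day 3 lay below day 2 in both libraries, a difference that was not called (log2 -0.57 ± 0.22, edgeR adjusted p = 0.0784). The step from day 3 to day 6 was called at -1.60 ± 0.25 (adjusted p = 2.64e-06), and day 7 lay 5.44-fold below day 2 (-2.44 ± 0.26, adjusted p = 1e-11). A second region 437 bp into the gene (chr17:87636416-87637027) was 2.91-fold lower (-1.54 ± 0.25, adjusted p = 1.7e-06). Not every region given to Epcam fell: the most accessible one, 22183 bp outside the gene (chr17:87613307-87613796), went from 16.5 and 17.4 CPM on day 2 to 25.4 and 27.4 on day 7 (0.64 ± 0.19, adjusted p = 0.00532). The share of Epcam counts that lay within 1 kb of a gene end went from 47.8% and 51.5% on day 2 to 21.7% and 17.7% on day 7. Of the 14 tested regions, 6 were called lower and 2 higher, with 15.8% and 22.0% of all regions.

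Cdh2 (chr18, 16588877 to 16809246) rose near both ends and inside the gene. The region 29 bp outside its lower-coordinate end (chr18:16588439-16588848) had 1.25 and 1.18 CPM on day 2, 3.57 and 1.88 on day 3, 8.23 and 11.1 on day 6, and 17.7 and 15.3 on day 7, a rise of 13.5-fold (log2 3.75 ± 0.34, edgeR adjusted p = 1.14e-13). At the other end (chr18:16809193-16809902) day 3 already overlapped the later groups: 12.8 and 14.3 CPM on day 2, then 24.7 and 29.3, 25.7 and 31.1, and 28.2 and 25.5, with 1.00 ± 0.19 for the first step (adjusted p = 0.000117). A region 68172 bp from that end inside the gene (chr18:16740581-16741074) also opened early, from 0.418 and 1.31 CPM to 5.52 and 6.21 on day 3, or 7.0-fold (2.81 ± 0.41, adjusted p = 6.91e-07). That step was 2.14 without day 2 library 1 and 3.71 without day 2 library 2. Its day 7 value was 3.33 ± 0.40 above day 2, or 2.67 without day 2 library 1 and 4.25 without day 2 library 2. A region inside the gene with 0 counts on day 2 (chr18:16597144-16597351) was at least 10.3-fold higher on day 7, set against 3 counts over the day 2 group. Of the 34 tested regions, 15 were called higher and 1 lower, with 22.0% and 15.8% of all regions. Cdh2 regions with a peak in both libraries of a group numbered 10 on day 2 and 18 on day 7, against 13 and 6 for Cdh1. Of all regions, 29.9% had a peak in both libraries on day 2 and 27.5% on day 7.

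Vim rose at its start site and more steeply inside the gene. The start-site region (chr2:13574142-13574649) had 13.3 and 14.0 CPM on day 2, 17.3 and 16.0 on day 3, 25.2 and 24.2 on day 6, and 27.1 and 30.8 on day 7 (log2 1.08 ± 0.19 for day 7 against day 2, edgeR adjusted p = 4.77e-06). The region 1773 bp into the gene (chr2:13576084-13576379) had 1.57 and 0.523, 1.61 and 2.31, 8.79 and 5.61, and 18.3 and 15.5 CPM, a rise of 15.3-fold (3.94 ± 0.36, adjusted p = 9.12e-14, or 5.00 without day 2 library 1). Its Gdf11 libraries had 10.0 and 8.72 CPM, below both day 7 libraries and overlapping those of day 6.

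**Figure D4:**
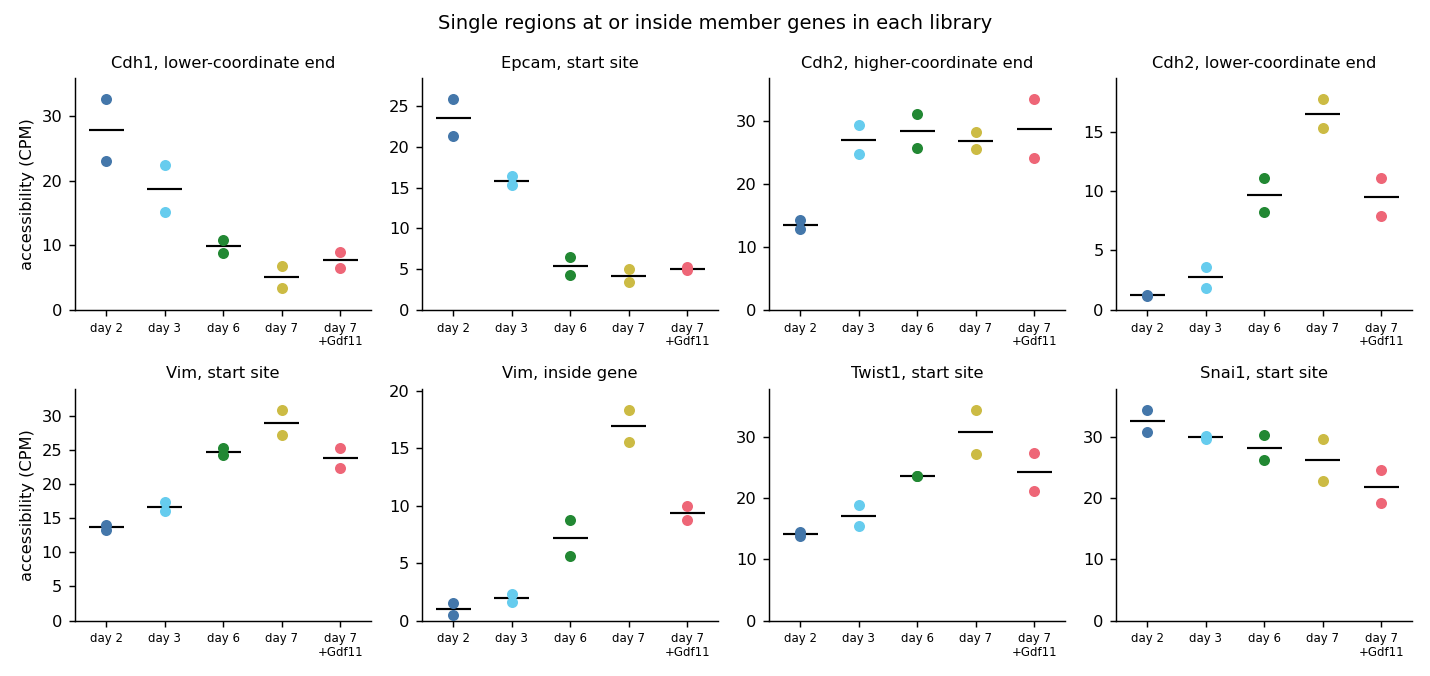
Accessibility (CPM, y axis, linear from 0) of 8 single regions by group (x axis), with 1 point per library and a bar at the mean of 2 libraries. Cdh1 and Epcam end regions fall from at least 21.3 CPM on day 2. The inner Vim region rises from 1.57 or less on day 2 to at least 15.5 on day 7. The Snai1 region, not called on day 7 against day 2, ranges from 19.2 in a Gdf11 library to 34.3 in a day 2 library.

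Of the factor genes with a known start site, Twist1 and Zeb2 had a start-site region called on day 7 against day 2, for Zeb2 at inner start sites and not at the outermost, and Twist2 and Snai1 had none. The Twist1 start-site region (chr12:33956961-33957806) went from 13.8 and 14.5 CPM on day 2 to 15.4 and 18.8, 23.6 and 23.5, and 34.3 and 27.1 on day 7 (log2 1.13 ± 0.19, edgeR adjusted p = 3.36e-06). The Twist2 start-site region (chr1:91801320-91801945) went from 3.87 and 5.36 to 6.12 and 6.92 CPM and was not called (0.50 ± 0.31, adjusted p = 0.203). A neighbouring region that reaches into the 250 bases before the site (chr1:91801018-91801306) was called higher (1.53 ± 0.52, adjusted p = 0.0162), a call lost without day 2 library 1 (adjusted p = 0.202) or day 7 library 2 (0.183). A Twist2 region inside the gene, 2921 bp from the higher-coordinate end (chr1:91844583-91845113) had 0.627 and 1.18 CPM on day 2, 0.934 and 0.289 on day 3, 8.47 and 6.98 on day 6, and 10.1 and 13.1 on day 7, which was 11.2-fold up from day 3 to day 6 (3.49 ± 0.42, adjusted p = 4.09e-09, or 4.69 without day 3 library 1). A region 25651 bp outside Twist2 (chr1:91873685-91874043) rose from 0.105 and 0.261 to 4.86 and 5.89 CPM (4.83 ± 0.65, adjusted p = 1.39e-08, or 5.49 without day 2 library 2).

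Zeb2 had the most tested regions of the 10 genes, 42, of which 16 were called higher and 2 lower on day 7 against day 2, with 22.0% and 15.8% of all regions. RefSeq lists 4 start sites for Zeb2. The region at the outermost one (chr2:45117147-45117572, minus strand) had 22.3 and 26 CPM on day 2 and 18.2 and 28.3 on day 7 and was not called (log2 -0.07 ± 0.20, edgeR adjusted p = 0.806). A region 4161 bp from that end (chr2:45112995-45113281), which holds the start site at 45113279 and the one at 45113253, had 4.08 and 4.58 CPM on day 2, 4.33 and 6.35 on day 3, 10.6 and 10.8 on day 6, and 12.1 and 16.1 on day 7. It rose 3.23-fold between day 2 and day 7 (1.69 ± 0.27, adjusted p = 6.99e-07), and the day 6 and day 7 libraries lay above all earlier ones. A small region within the 250 bases before those sites (chr2:45113363-45113469) went from 0.836 and 0.523 to 3.6 and 4.27 CPM (2.47 ± 0.54, adjusted p = 0.000181). These regions were picked after their values were seen, as was the Twist2 region before the start site. A region 16196 bp outside the other end (chr2:44966649-44967316) had 1.46 and 0.261 CPM on day 2, 6.79 and 7.07 on day 3, 22.9 and 15.9 on day 6, and 17.5 and 19.7 on day 7, or 19.9-fold higher (4.31 ± 0.34, adjusted p = 4.72e-16). The size of that rise depended on day 2, at 6.09 without its library 1 and 3.63 without its library 2. Inside the gene, chr2:45063252-45063973 rose from 3.45 and 2.35 to 23.8 and 27.5 CPM (3.11 ± 0.25, adjusted p = 1.82e-15). For Zeb1 (chr18, 5591327 to 5775468), the lower-end region (chr18:5591366-5592249) differed by 0.27 ± 0.19 and was not called (adjusted p = 0.27). One 30883 bp beyond the higher end (chr18:5806351-5806764) went from 0.627 and 1.05 to 9.09 and 9.72 CPM (3.50 ± 0.42, adjusted p = 5.47e-10).

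At Snai1 the start-site region (chr2:167537863-167538343) had 30.7 and 34.3 CPM on day 2 and 29.6 and 22.7 on day 7 and was not called (log2 -0.30 ± 0.18, edgeR adjusted p = 0.173). Smaller regions around it moved in both directions. One inside the gene, 2544 bp from the start (chr2:167540739-167541007), fell from 6.59 and 6.28 to 1.17 and 1.18 CPM (-2.44 ± 0.43, adjusted p = 6.56e-06). One 10423 bp before the start (chr2:167527560-167527772) rose from 0.209 and 0.523 to 2.79 and 3.68 CPM (3.14 ± 0.66, adjusted p = 0.000119, or 3.83 without day 2 library 2). For Snai2 the region at the lower-coordinate end (chr16:14705273-14706044) held 90.1% to 95.6% of the gene's counts together with 1 neighbour, and 0 of 3 tested regions were called in any comparison by edgeR or DESeq2, with 1 test at an unadjusted p under 0.05.

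**Figure D5:**
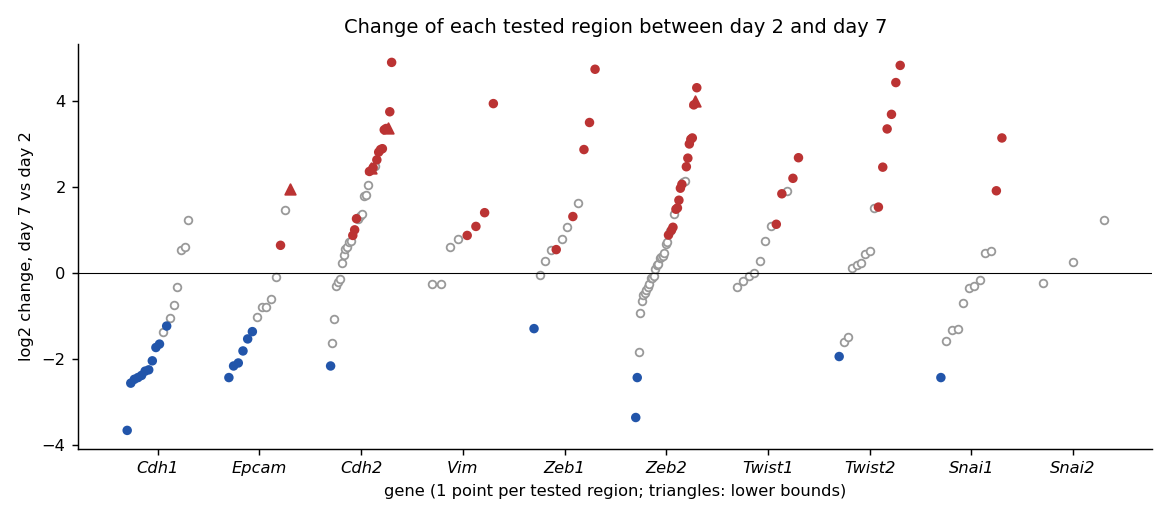
The log2 change of each of the 170 tested regions between day 2 and day 7 (y axis) by gene (x axis, points ordered by change within a gene). Filled points are adjusted p under 0.05, red higher and blue lower, open points were not called, and triangles are lower bounds for 4 regions with 0 counts on day 2. Cdh1 has 11 blue points and 0 red, Cdh2 15 red, triangles included, and 1 blue.

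Over all members, 54 of 170 tested regions (31.8%) were called higher on day 7 than on day 2 and 23 (13.5%) lower, with 22.0% and 15.8% of all regions. The median change was 0.53 for members and 0.10 for all regions (log2). Every member gene had a region called in at least 1 of the 5 comparisons except Snai2, which had only 3 tested regions. For day 3 against day 2 the counts were 15 higher and 8 lower (8.82% and 4.35% of all regions), close to the share over all regions. Without day 2 library 1 they were 9 and 5, and the lower calls were 4 without day 2 library 2 and 2 without day 3 library 1. For day 6 against day 3 they were 24 higher and 8 lower (9.19% and 6.05%), with 12 higher without day 3 library 1 or day 6 library 1 and 5 lower without day 3 library 2.

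From day 6 to day 7, 4 member regions were called higher (0.974% of all regions) and 0 lower (0.207%) in edgeR: 2 of Zeb2, 1 of Cdh2 and the inner Vim region. DESeq2 also called 0 lower, and the unadjusted p was under 0.05 for 10 lower ones. The higher count was 1 without day 6 library 1 or day 7 library 2 and 0 without day 6 library 2, and 1 was called lower without day 6 library 1 or day 7 library 1. With Gdf11, 6 were called lower (2.65% of all regions), 4 of Cdh2 and 2 of Zeb2, and 1 higher (1.09%), a Zeb2 region. With library size alone the counts were 2 lower and 1 higher, and with cyclic loess 3 and 1. The lower count was 1 without day 7 library 2, 2 without Gdf11 library 1 and 3 without Gdf11 library 2, and the higher count was 0 without any 1 of the 4 libraries. A Cdh2 region 2194 bp from its higher-coordinate end (chr18:16806348-16807052) had 35.7 and 39.5 CPM on day 7 and 17.4 and 22.3 with Gdf11 (log2 -0.92 ± 0.17, adjusted p = 0.000337), below both day 6 libraries at 33.4 and 33.0. The Zeb2 region chr2:45031628-45031948 fell from 7.83 and 15.3 to 3.97 and 4.52 CPM (-1.42 ± 0.32, adjusted p = 0.00298), which was -0.91 without day 7 library 2 (0.335) and -1.34 without Gdf11 library 1 (0.05).

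The genes that work with the members moved in part with them. Of 26 epithelial junction and identity genes other than the members, 21 were called lower and 1 higher on day 7 against day 2, where 22.9% of all genes were called lower and 29.3% higher. Their median log2 change was -1.25, against 0.06 for all genes. Cldn7, a tight junction claudin, fell 8.14-fold (-3.03 ± 0.23, edgeR adjusted p = 1.65e-13), and Esrp1, a splicing regulator of epithelial cells, fell 4.35-fold (-2.12 ± 0.14, adjusted p = 3.01e-15). The exception was Dsp, which encodes the desmosome protein desmoplakin. By day 3, 5 of the 26 were called lower than on day 2 (10.4% of all genes), and 16 were called lower on day 6 than on day 3 (10.8%). With Gdf11, 5 were called higher than on day 7 and 1 lower (2.09% and 11.3% of all genes). Library size alone called 8 higher and 0 lower, where 984 of all genes were higher and 588 lower. It was 7 and 1 with cyclic loess (854 and 753 of all genes) and 2 and 1 with DESeq2 (186 and 1628). Esrp1 was among the 5 higher at 0.51 ± 0.15 (edgeR adjusted p = 0.0198). That call was lost without day 7 library 1 (0.45, 0.148), day 7 library 2 (0.52, 0.0801), Gdf11 library 1 (0.46, 0.123) or Gdf11 library 2 (0.48, 0.0501).

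Mesenchymal genes were called in both directions. Of 20 mesenchymal and matrix genes, 9 were called higher and 5 lower on day 7, with a median of 0.31. The lower share was near that of all genes, of which 29.3% were called higher and 22.9% lower in the same comparison. Cdh11, a mesenchymal cadherin, rose 2.98-fold (log2 1.58 ± 0.11, edgeR adjusted p = 3.98e-15) and Cd44, a hyaluronan receptor, 2.16-fold (1.11 ± 0.12, adjusted p = 3e-10), while Mmp2, a matrix metalloprotease, and Sparc, a matrix glycoprotein, were among the lower. Of 18 other cadherins 4 were higher and 8 lower, among the lower Cdh3, which encodes P-cadherin (-1.59 ± 0.13). The lists share genes, so their counts are not separate. Cdh3 is also among the epithelial genes, Cdh11 is in the mesenchymal and cadherin lists, and Krt18 and Krt19 are in the epithelial and filament lists. Tbx6 is among both the caudal and the mesoderm markers, and Foxc2 among both the mesenchymal genes and the mesoderm markers. Of 14 catenins and junction partners 5 were higher, including Ctnna2, the neural alpha-catenin (0.84 ± 0.09), and 1 was lower, Jup, which encodes plakoglobin (-0.76 ± 0.12). Of 12 other intermediate filament genes 7 were lower, Krt19 by the most of those named (-2.11 ± 0.24). EdgeR and DESeq2 called 0 of them higher, and 0 had an unadjusted p under 0.05 in that direction.

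Of 19 partners and corepressors of the EMT factors, 8 were higher and 5 lower on day 7, the lower share near the 22.9% of all genes. Tcf12 and Tcf4, which encode E-proteins that dimerise with Twist factors, rose by 1.49 ± 0.09 (log2, edgeR adjusted p = 4.47e-17) and 0.82 ± 0.08 (adjusted p = 8.82e-11), and with Gdf11 they fell by 0.62 and 0.39 (adjusted p = 1.51e-06 and 0.000814). The Tcf4 fall was not called with library size alone (-0.23, 0.0688) or cyclic loess (-0.20, 0.0661). Markers of other cell types were called in both directions: of 10 neural crest genes 3 were higher and 5 lower, of 10 mesoderm genes 3 were higher and 2 lower, and of 14 feeder fibroblast genes 4 were higher and 3 lower. The mesoderm and feeder shares lay near those of all genes (29.3% higher and 22.9% lower). Neural crest sums ranged from 570 to 707 CPM over all 10 libraries, and mesoderm sums from 386 to 418 on days 2, 3 and 6. The part of these cells in the Vim, Twist1 and Zeb2 changes was not tested.

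The genes whose accessibility followed Cdh1 most closely over the 10 libraries, among genes above the median level, were Fgfbp1 (Pearson r = 0.993 of log2 CPM), Als2cl (0.99) and Grhl2 (0.99), and those nearest to Cdh2 were Bank1 (0.991), Hoxd3 (0.991) and Rpl28 (0.99). Grhl2 encodes an epithelial transcription factor. The libraries of a group share their day of culture, so these values describe likeness of course and carry no p.

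The authors' deposited table of motifs lists the motifs of these factors in sets of regions named up or down between groups, with neither the choice of regions nor the direction explained in the sources used here. In the authors' deposited table, the Slug motif was in 21.3% of the regions named down between day 3 and day 6 and in 13.74% of their background, and the ZEB1 motif in 48.7% and 39.18%. They stood at places 48 and 55 of the 414 motifs listed for that set. In regions named up for the same pair the authors' deposited table gives the ZEB1 motif 19.4% against 35.91%, and the Twist motif, at place 67, 5.7% against 2.85%. The motif of the E-protein HEB lay above background in both sets, at 50.6% against 41.41% down and 45.5% against 39.94% up. Between day 7 and Gdf11 the authors' deposited table gives the Twist motif 7.65% of regions named up against 3.49%, again at place 67. There the ZEB1 motif lay below background in regions named down, at 28.9% against 45.61%, and in those named up, at 33.8% against 39.64%.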

How the data were processed

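The deposited files hold raw counts per region and library, and the tool that counted them is not given in the sources used here. Per the submitters' processing notes, the tools used on build mm10 were HOMER 4.10, MACS2 2.1.1.20160309, HISAT2 2.1.0, bedtools and SAMtools. The authors' deposited peak lists give each peak a score, a ratio (fold enrichment) and -log10 values of p and q, called per library. The deposited motif tables hold percents and a log p score.

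The count tables carry no coordinates. The 10 peak lists were merged, with chromosomes in character order, into 246799 regions, the number of features counted, and each library had counts in all peaks called in it. With chromosomes in numeric order, 1095 to 9931 peaks per library had 0 counts. Positions rest on this match. Genes came from the RefSeq table of GRCm38.p6, and a gene's value is the sum of its regions within 50 kb.

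Counts were tested with edgeR 4.0.16 under R 4.3.3 (filterByExpr, TMM factors, 1 quasi-likelihood fit of all 10 libraries by group, two-sided F tests, Benjamini-Hochberg within each comparison over all regions or genes, threshold 0.05). The fit draws the variance of each region or gene towards a trend over all of them, with 52.3 prior degrees of freedom for regions. Standard errors come from the F statistic and share this pooling. CPM are TMM-scaled. The filter removed 73624 of the regions. Folds against a group without counts use 3 counts over that group, and such bounds cover counting error only. The alternatives were library size alone, cyclic loess with limma 3.58.1, DESeq2 1.42.0, no filter, a replicate block, a window of 10 kb and leaving out each library. The fits were tested on simulated data. Named regions were, per gene, the most accessible, those at an end, and up to 3 with the smallest p; up to 4 genes per list and comparison were picked by p. Regions named beside a bound, beside a count of 5 or fewer or at further start-site windows of Zeb2 and Twist2, and Dsp, Mmp2 and Sparc, were chosen after their values were seen. Some list genes are counted in their lists and not reported here by name. The members and lists were chosen with earlier results of these data known.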

Additional observations from a re-analysis of the deposited data

How the results depend on the processing

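The calls of day 7 against day 2 for Zeb1, Zeb2, Twist1, Twist2, Cdh1, Cdh2, Epcam and Vim held under each of the 6 other settings and without each single library, though sizes moved (Zeb2 0.20 with cyclic loess, Epcam -1.68 and Zeb1 0.45 with the 10 kb window). With 2 libraries a group, smaller changes could be missed, and leaving 1 out assumes that the lone library varies like the other groups. Over all named results, 2392 recalculated values kept direction and call, 295 lost the call, 20 gained one and 22 changed sign.

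Under DESeq2, day 3 against day 2 called 9 member regions higher and 4 lower and 1 gene higher. Cyclic loess called 1 gene higher there, and the 10 kb window 1 gene lower. For day 7 against day 6, library size alone called 2 regions and 0 genes higher, cyclic loess 1 region lower and 0 genes higher, and the 10 kb window 1 gene higher. With Gdf11, regions called lower were 2 with library size alone, 3 with cyclic loess and 3 with DESeq2, and the 10 kb window called 0 regions higher and 2 genes lower. Library size alone and cyclic loess each called 1 gene higher and 0 lower. The cause was not tested.

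Deviations of same-numbered libraries from their group means correlated little over regions (-0.000744 to 0.0326). Single-region deviations include counting error, so these values cannot tell whether the numbers pair the samples. In each group library 2 had fewer counts and a higher mitochondrial share of counts than library 1. With the replicate block 4 member genes were called higher on day 3, and with Gdf11 1 higher and 4 lower.

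Without single libraries, member regions called higher and lower were 9 to 13 and 2 to 6 for day 3 against day 2, 12 to 18 and 5 to 8 for day 6 against day 3, 0 to 3 and 0 to 1 for day 7 against day 6, and 0 and 1 to 5 with Gdf11. Genes were 1 to 2 and 1 to 2 on day 3, 1 to 2 lower on day 6, 0 to 2 higher on day 7, and 0 to 1 higher and 0 to 4 lower with Gdf11.

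Among the members, signs turned only where no change was called. Cyclic loess gave Snai1 -0.01 (day 6 against day 3) and Snai2 -0.03 (day 3 against day 2). DESeq2 gave Snai2 -0.04 and Twist2 -0.03 for that first step. With Gdf11, library size alone and cyclic loess gave Zeb1 0.04 and Twist1 0.09. The 10 kb window gave Snai1 -0.10 and Zeb1 -0.18 for day 6 against day 3. It also turned list genes that edgeR had called lower. Tcf15 went from -0.36 (adjusted p = 0.0144) to 0.14 (0.5) for day 7 against day 2. Tgfbi went from -0.43 (0.00416) to 0.10 (0.693) with Gdf11. Without single libraries Snai1 ranged from -0.05 to 0.10 (day 6 against day 3) and from -0.07 to 0.07 (day 7 against day 6), Snai2 from -0.13 to 0.09 and -0.03 to 0.02 over the first 2 steps, Twist2 from -0.26 to 0.29 over the first step and Twist1 from -0.30 to 0.09 with Gdf11.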
